A study of Saccharomyces cerevisiae with 34 samples.

Results

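The change in messenger RNA during 2 h in galactose was compared between budding yeast that induce CENP-A Cse4 without the ubiquitin ligase Psh1 (psh1Δ pGAL-3Flag-CSE4) and wild type (WT). The comparison was chosen by genotype and time and used 12 of the 34 libraries of the series, 6 of psh1Δ pGAL-3Flag-CSE4 and 6 of WT, with 3 batches at each time. Every culture grew asynchronously in rich medium with lactic acid at 23 °C. A sample was taken before galactose (t0), galactose was added to 2%, and another sample was taken 2 h later (t2). The psh1Δ pGAL-3Flag-CSE4 cells lack PSH1 and carry a Flag-tagged CSE4 under the galactose promoter, placed with the LEU2 marker at the mutant leu2 locus. WT has neither change, and both genotypes are Rad5+. Each batch of a genotype was a different strain number, and t2 and t0 of a batch came from the same strain, so n = 3 per group. The p-values of the main fit measure the spread between these strains and cultures within a group. That fit did not pair t2 with t0 of a culture, whereas a fit with the culture as a block, given below, did.

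CENP-A, called Cse4 in budding yeast, is the histone H3 variant that marks the centromere and carries the kinetochore. Psh1 ubiquitylates Cse4 that is not at the centromere and so directs it to proteolysis. When CSE4 is overexpressed and Psh1 is missing, Cse4 accumulates in chromatin away from the centromere. The authors reported that this overexpression is lethal to cells without Psh1. Because the pGAL promoter needs galactose, every strain also shows the response to galactose itself, which is why the change in WT was subtracted.

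The 12 libraries held 5352631 to 6321150 counts on 6209 genes, so that 3 counts, taken as the smallest level told from 0, correspond to 0.475 to 0.56 CPM (counts scaled to a common library total, counts per 1e6). PSH1 was checked first. It had 1, 0 and 0 counts at t2 and 0, 2 and 1 counts at t0 in psh1Δ pGAL-3Flag-CSE4, against 202, 165 and 228 counts at t2 and 241, 205 and 225 counts at t0 in WT. The labels and the deletion therefore matched in all 12 libraries. Before the results, 3 features of the strains need stating. In batch 1, genes on chromosome I stood higher in psh1Δ pGAL-3Flag-CSE4 than in WT, with a median log2 ratio of 0.89 at t2 and 0.92 at t0 over 88 genes, against -0.07 and 0.04 at t2 and 0.01 and 0.02 at t0 in batches 2 and 3. The same genes had a median of -0.04 for the difference of changes in batch 1, since the offset was present at both times. The t0 libraries of batch 3 stood apart from those of the other batches in both genotypes. BAR1, a protease gene of a cells, had 0 counts in all 6 psh1Δ pGAL-3Flag-CSE4 libraries and 357 to 637 counts in WT, while the a-cell gene STE2 had 1390 to 3561 counts over all 12 libraries and the alpha-cell gene STE3 had 0 to 9.

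CSE4 itself was induced strongly. It reached 21740, 14220 and 15110 CPM at t2 in psh1Δ pGAL-3Flag-CSE4, against 53.3, 45.7 and 35.5 CPM at t0. In WT the values were 22.2, 22.8 and 24.3 CPM at t2, against 24.9, 27.0 and 25.7 CPM at t0. The log2 difference of changes was 8.73 ± 0.30 (SE, adjusted p = 1.03e-08, by the quasi-likelihood test of edgeR, with p-values adjusted over all genes by Benjamini and Hochberg). All 3 t0 libraries of psh1Δ pGAL-3Flag-CSE4 lay above the 3 t0 libraries of WT. At t2, CSE4 took 1.28 to 1.9% of all counts in psh1Δ pGAL-3Flag-CSE4. The counts do not separate the endogenous gene from the transgene. LEU2, the marker beside the transgene, had 1121, 363 and 609 CPM at t2 in psh1Δ pGAL-3Flag-CSE4 and 252, 302 and 255 CPM at t2 in WT, with a log2 difference of changes of 1.64 ± 0.46 that did not pass the test (adjusted p = 0.11).

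The number of genes that differed depended on the test. A gene was called at an adjusted p under 0.05 and a change of at least 1.5-fold in either direction. In the difference of changes 10 genes were called higher (0.161% of 6209) and 11 lower (0.177%). The calls rested on few libraries. Without batch 1, 2 or 3, the genes called higher numbered 1, 3 and 3 and none was called lower, although 275, 375 and 428 genes were lower at an unadjusted p under 0.05, and 1, 1 and 2 of the 21 genes were still called. All 21 kept their direction in these fits and had the same sign in each batch alone. These fits and batches hold libraries from which the 21 were called, so this is not separate support. With the batch as a block, 18 genes were called higher and 17 lower, 20 of the 21 among them. With the culture as a block, 4 were called higher and 2 lower. CSE4, ARG1, PHO3, POA1 and YDR090C were the 5 of the 21 among them, and the other 16 had adjusted p values of 0.0506 to 0.0693 in that edgeR fit. Other tests called more, with 99 higher and 61 lower by DESeq2's Wald test, 80 and 75 by edgeR's likelihood ratio test, and 113 and 75 when all 34 libraries entered the fit. At an unadjusted p under 0.05, 457 genes were higher (7.36%) and 545 lower (8.78%).

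Each genotype alone changed more. In psh1Δ pGAL-3Flag-CSE4, 268 genes were called higher (4.32%) and 224 lower (3.61%) at t2 against t0. In WT, 79 were called higher (1.27%) and 85 lower (1.37%). Set directly against WT at t2, psh1Δ pGAL-3Flag-CSE4 had 262 genes called higher (4.22%) and 208 called lower (3.35%), and 255 and 208 of them lay outside chromosome I. Without batch 1 that comparison called 19 higher and 36 lower. Before galactose only 2 genes were called higher (0.0322%) and 11 lower (0.177%). Besides PSH1, BAR1 and SNL1, the gene beside BAR1, the genes lower at t0 included LEU1, BAT1, OAC1 and ILV2 of the leucine and branched-chain amino acid pathway, with log2 values of -2.77, -1.94, -2.27 and -0.76.

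Among the genes that rose were ARG1 and LYS1, of amino acid synthesis. ARG1 encodes argininosuccinate synthetase of arginine synthesis. Its level was 530, 421 and 420 CPM at t2 in psh1Δ pGAL-3Flag-CSE4, against 278, 289 and 298 CPM at t0. In WT it was 148, 144 and 188 CPM at t2, against 307, 285 and 322 CPM at t0. ARG1 thus rose in psh1Δ pGAL-3Flag-CSE4 by 0.66 ± 0.12 on the log2 scale and fell in WT by 0.93, and the t2 groups did not overlap. The log2 difference of changes was 1.59 ± 0.18 (adjusted p = 0.00257). LYS1 encodes saccharopine dehydrogenase, the last enzyme of lysine synthesis. It had 155, 121 and 143 CPM at t2 in psh1Δ pGAL-3Flag-CSE4, against 82.9, 91.2 and 75.7 CPM at t0. WT had 50.8, 67.7 and 62.6 CPM at t2, against 74.4, 85.2 and 71.9 CPM at t0. The log2 difference was 1.10 ± 0.18 (adjusted p = 0.0274), and again every psh1Δ pGAL-3Flag-CSE4 library at t2 lay above every WT library.

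Promoter sequence is shown for 5 genes on which the account turns, from 300 to 51 bases before the start codon in the RefSeq copy of sacCer3. ARG1 and LYS1 are risers of amino acid synthesis, with capitals at the core of the Gcn4 site (TGACTC on either strand). HSP82 leads the heat shock genes, with capitals at TTCNNGAA, 2 inverted units of the Hsf1 site. YBR284W has capitals at GGTGGCAAA, the site of Rpn4, the activator of proteasome genes. POA1 is the gene with the largest called fall, and its window held none of the motifs searched on both strands, which were TGACTC, TTCNNGAA, GGTGGCAAA, the Lys14 site TCCNNNGGA, the stress element CCCCT and the Pho4 site CACGTG. The LYS1 window also held 1 Lys14 site and 1 CCCCT, and the HSP82 window held 1 CCCCT, all left in lower case. The windows are chrXV:218911-219160 (plus strand), chrIX:420787-421036 (minus), chrXVI:98676-98925 (minus), chrII:770939-771188 (plus) and chrII:283438-283687 (plus).
ARG1: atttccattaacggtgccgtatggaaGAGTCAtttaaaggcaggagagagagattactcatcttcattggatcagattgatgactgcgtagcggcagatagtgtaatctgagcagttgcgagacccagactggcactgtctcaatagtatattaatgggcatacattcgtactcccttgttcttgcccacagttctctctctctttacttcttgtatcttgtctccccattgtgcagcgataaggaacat
LYS1: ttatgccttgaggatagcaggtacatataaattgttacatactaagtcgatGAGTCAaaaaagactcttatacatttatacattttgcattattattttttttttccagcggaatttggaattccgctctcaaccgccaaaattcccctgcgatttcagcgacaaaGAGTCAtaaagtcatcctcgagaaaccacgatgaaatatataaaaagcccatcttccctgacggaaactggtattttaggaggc
HSP82: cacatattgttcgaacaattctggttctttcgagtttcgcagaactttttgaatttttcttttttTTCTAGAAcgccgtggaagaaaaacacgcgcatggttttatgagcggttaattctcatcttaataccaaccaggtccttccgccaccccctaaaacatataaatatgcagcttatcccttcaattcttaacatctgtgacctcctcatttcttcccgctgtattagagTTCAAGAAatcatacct
YBR284W: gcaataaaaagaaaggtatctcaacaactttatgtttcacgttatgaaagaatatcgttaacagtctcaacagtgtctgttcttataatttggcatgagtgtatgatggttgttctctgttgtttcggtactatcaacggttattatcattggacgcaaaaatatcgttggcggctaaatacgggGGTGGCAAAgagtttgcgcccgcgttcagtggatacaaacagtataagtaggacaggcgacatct
POA1: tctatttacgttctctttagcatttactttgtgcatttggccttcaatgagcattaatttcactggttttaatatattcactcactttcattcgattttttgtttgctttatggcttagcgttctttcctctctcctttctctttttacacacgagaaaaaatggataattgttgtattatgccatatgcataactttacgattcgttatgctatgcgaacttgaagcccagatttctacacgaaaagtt

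TGACTC was in 4 of the 9 windows of genes called higher, ARG1, LYS1 and SNG1 among them, and in 1 of 11 of those called lower (DFR1), against 7.08% of all 5706 windows of this length. YKL153W, listed as dubious, had no window in this count. At an unadjusted p under 0.05, TGACTC was in 35 of 427 windows of higher genes (8.2%) and 35 of 532 of lower ones (6.58%). The 10 genes of the arginine list held it in 9 cases and the 10 of the lysine list in 5. The Lys14 site was also in 5 of the 10 lysine windows and in 1 of the 10 arginine windows, against 2.84% of all windows. For arginine, 2 of 10 genes were called higher and none lower, 5 were higher at an unadjusted p under 0.05 (3 without batch 1), and the median log2 difference was 0.53, against -0.01 over all genes. ARG8 had 0.20 and ORT1, a mitochondrial ornithine carrier, 0.00. The list's batch medians were 0.53, 0.46 and 0.57. For lysine, 1 of 10 was called higher and 3 were higher at an unadjusted p under 0.05, with a median of 0.33. LYS21, a homocitrate synthase at the start of the pathway, had -0.08. Of 35 other amino acid genes none was called, 5 were higher and 1 lower at an unadjusted p under 0.05, and the median was 0.08. Over all genes 7.36% were higher and 8.78% lower at that p. Among the other amino acid genes HOM3, of threonine and methionine synthesis, had 0.75 ± 0.17 (adjusted p = 0.063).

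**Figure D1:**
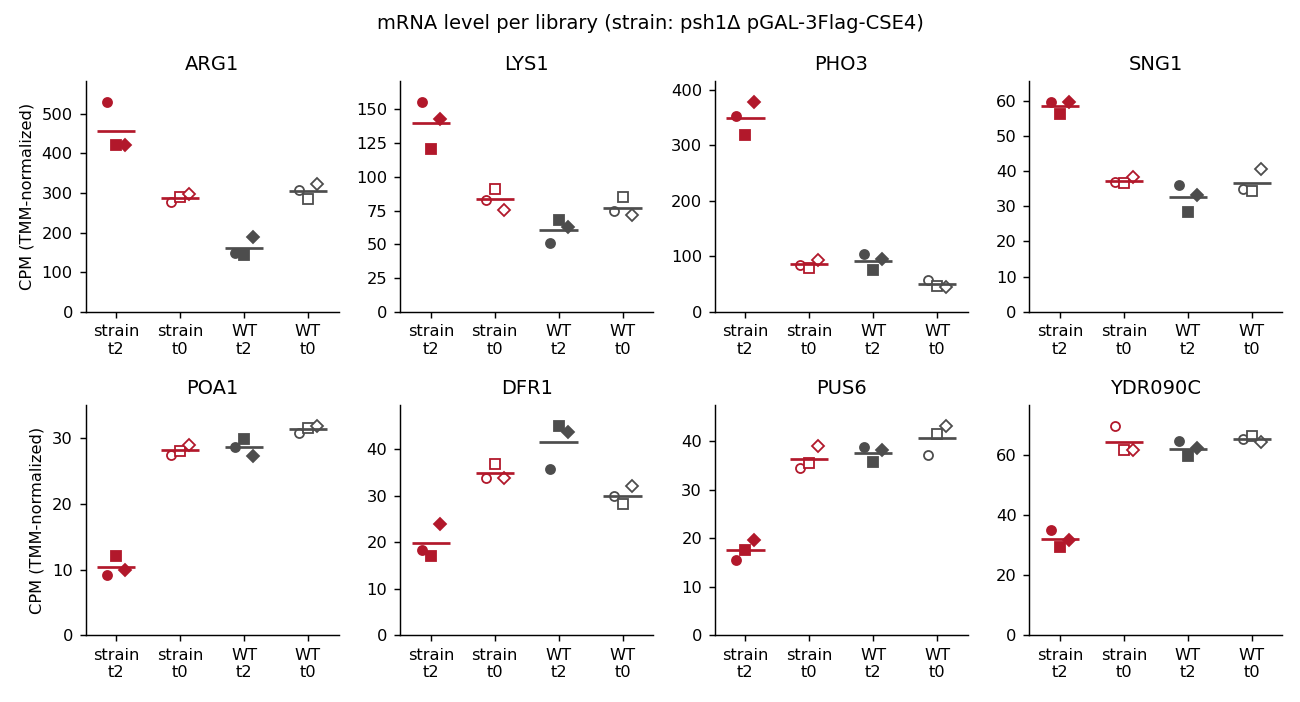
TMM-normalized CPM (y axis, from 0) of 4 genes called higher and 4 called lower in each library, by genotype and time (strain, psh1Δ pGAL-3Flag-CSE4; circles, squares and diamonds, batches 1, 2 and 3; lines, group means; filled, t2; open, t0). At t2 the psh1Δ pGAL-3Flag-CSE4 libraries do not overlap the WT libraries for any of the 8 genes, and the t0 libraries of the genotypes lie close together except for PHO3. The 8 genes were called with these libraries.

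PHO3 encodes an acid phosphatase that acts on thiamine phosphates at the cell surface. It had 352, 319 and 378 CPM at t2 in psh1Δ pGAL-3Flag-CSE4, against 84.5, 78.8 and 93.1 CPM at t0. In WT it had 104, 75.9 and 95.6 CPM at t2, against 57.4, 46.8 and 45.0 CPM at t0. It therefore rose in both genotypes, by 2.03 and 0.88 on the log2 scale, and started higher in psh1Δ pGAL-3Flag-CSE4. The log2 difference was 1.15 ± 0.18 (adjusted p = 0.0226), and 91.3% of the 50-base stretches of PHO3 occur once in the genome, so part of its count is uncertain beside its near copy PHO5.

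Other genes called higher included SNG1, GCG1, YBR284W, YOR343W-B and YKL153W. SNG1, of resistance to nitrosoguanidine, had 59.6, 56.1 and 59.5 CPM at t2 in psh1Δ pGAL-3Flag-CSE4 and 35.9, 28.4 and 33.2 CPM at t2 in WT, with a log2 difference of changes of 0.82. GCG1, a glutathione-cleaving enzyme, had 49.0, 48.8 and 63.0 CPM at t2 in psh1Δ pGAL-3Flag-CSE4 and 22.7, 24.4 and 28.2 CPM in WT, with a difference of 1.06. YBR284W, a putative hydrolase, had 24.6, 23.9 and 24.1 CPM at t2 in psh1Δ pGAL-3Flag-CSE4 and 8.62, 12.4 and 12.4 CPM in WT, with a difference of 1.34. For each of the 3 genes the fitted change was upward in psh1Δ pGAL-3Flag-CSE4 and below 0 in WT, where it was not called.

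YKL153W and YOR343W-B cannot be read as single genes. YKL153W is annotated as a dubious reading frame and overlaps GPM1, the glycolytic phosphoglycerate mutase, and the libraries carried no strand. It had 228, 215 and 220 CPM at t2 in psh1Δ pGAL-3Flag-CSE4 and 109, 107 and 83.1 CPM in WT, with a log2 difference of 1.35. GPM1 had 3018, 2819 and 2807 CPM at t2 in psh1Δ pGAL-3Flag-CSE4 and 1168, 1518 and 1062 CPM in WT, with a log2 difference of 1.30 ± 0.26 that just missed the test (adjusted p = 0.0541). YOR343W-B is a Ty retrotransposon reading frame of which only 7.26% of 50-base windows were unique. It had 18.2, 18.5 and 18.2 CPM at t2 in psh1Δ pGAL-3Flag-CSE4 and 7.35, 9.78 and 11.6 CPM in WT, with a difference of 1.29. Of 22 Ty frames, 1 was called higher and none lower, 5 were higher at an unadjusted p under 0.05 (against 7.36% of all genes), and the median was 0.54. Reads of such copies can be placed on one another.

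The genes that fell were of moderate level, 20.7 to 134 CPM in WT at t2 with a median of 50.8 CPM, close to the median of 53.8 CPM over all genes. POA1 encodes a phosphatase for ADP-ribose 1''-phosphate, a by-product of tRNA splicing. Its level was 9.20, 12.1 and 9.92 CPM at t2 in psh1Δ pGAL-3Flag-CSE4, against 27.5, 28.0 and 29.0 CPM at t0. WT had 28.6, 29.9 and 27.2 CPM at t2, against 30.7, 31.6 and 31.9 CPM at t0. POA1 fell in psh1Δ pGAL-3Flag-CSE4, its t2 libraries lay below all other libraries, and the change in WT was not called. The log2 difference was -1.30 ± 0.15 (adjusted p = 0.00257). PUS6, a tRNA pseudouridine synthase, had 15.6, 17.7 and 19.6 CPM at t2 in psh1Δ pGAL-3Flag-CSE4 and 38.8, 35.7 and 38.2 CPM in WT, with a log2 difference of -0.93. TAE1 methylates ribosomal proteins. It rose in WT, with 48.1, 51.0 and 53.3 CPM at t2 and 31.7, 31.7 and 34.9 CPM at t0, and stayed uncalled in psh1Δ pGAL-3Flag-CSE4, with 29.0, 28.1 and 31.2 CPM at t2 and 33.9, 37.4 and 35.3 CPM at t0.

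DFR1 encodes dihydrofolate reductase. It had 18.4, 17.0 and 23.9 CPM at t2 in psh1Δ pGAL-3Flag-CSE4, against 33.7, 36.8 and 33.8 CPM at t0. WT had 35.8, 45.0 and 43.6 CPM at t2, against 29.8, 28.1 and 32.0 CPM at t0. DFR1 fell in psh1Δ pGAL-3Flag-CSE4, the WT change of 0.47 was not called, and the log2 difference was -1.28 ± 0.18 (adjusted p = 0.0133). Of the 15 folate and one-carbon genes, DFR1 was the 1 called, and the median of the list was 0.17. The remaining genes that fell had mixed roles. HTD2, of mitochondrial fatty acid synthesis, and MRPL17, a mitochondrial ribosomal protein, had log2 differences of -0.93 and -0.70, and HTD2 was not called with the batch as a block (adjusted p = 0.055, edgeR). GTR2, a GTPase of the vacuolar complex that signals amino acid supply to TORC1, had -0.81. HCS1, a DNA helicase found with polymerase alpha, had -0.90 and MSB1, linked to cell polarity, had -0.95. YDR090C and YGL101W, both of unknown function, had -0.94 and -1.02.

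Taking the 21 genes by where the change lay, all 10 called higher were also called higher at t2 against t0 within psh1Δ pGAL-3Flag-CSE4, and 9 of the 11 called lower were called lower there. In WT 1 gene of each set was called in the opposite direction, ARG1 and TAE1. For all 21 the t2 libraries of psh1Δ pGAL-3Flag-CSE4 did not overlap those of WT, but these libraries entered the calls. The share of all genes without such overlap was not counted. Of the 21 genes, PHO3 alone was called at t0.

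**Figure D2:**
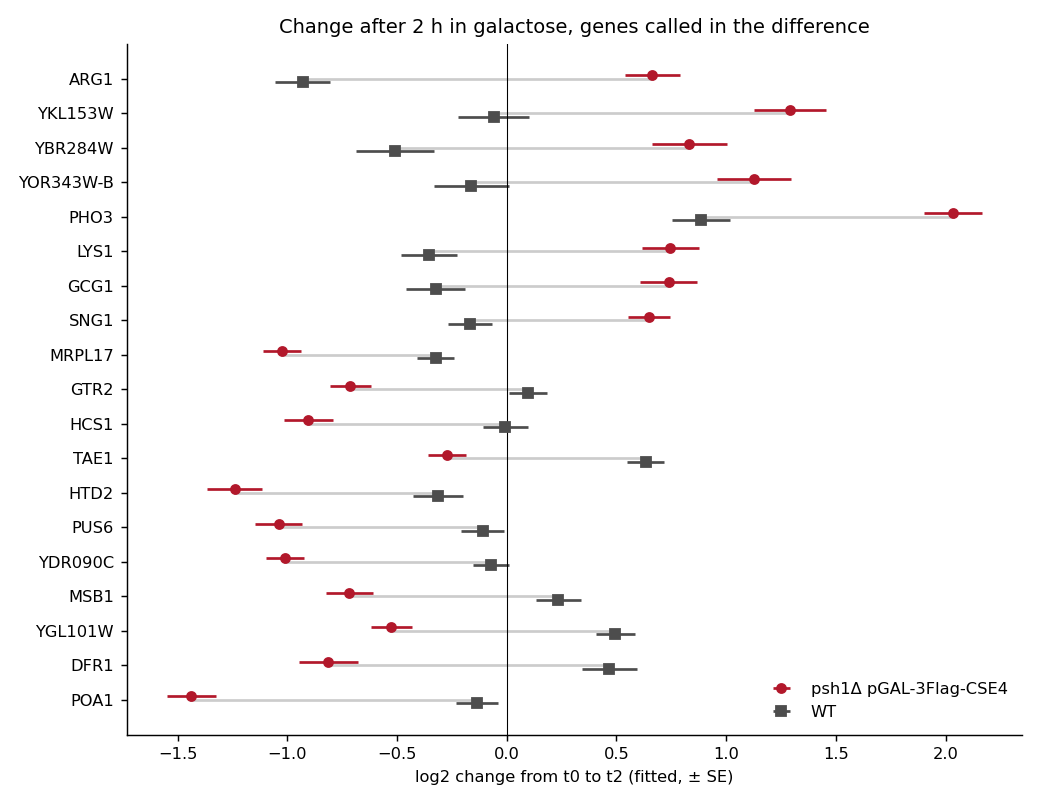
Fitted log2 change at t2 against t0 (x axis, ± SE) in psh1Δ pGAL-3Flag-CSE4 (circles) and WT (squares) for 19 of the genes called in the difference (rows, ordered by the difference). CSE4 is left out for scale. Among the genes that fell, POA1, HCS1, PUS6 and YDR090C lie near 0 in WT, while DFR1, YGL101W and TAE1 lie above 0 there.

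Just past the threshold stood 10 more genes with the same sign in every batch, at adjusted p values of 0.0502 to 0.0541. DBR1, which opens intron lariats, had 12.8, 12.7 and 13.6 CPM at t2 in psh1Δ pGAL-3Flag-CSE4 and 29.2, 25.8 and 25.4 CPM in WT, with a log2 difference of -0.99. SEN15, a subunit of the tRNA splicing endonuclease, had -1.28, and LOC1, of ribosome assembly and ASH1 mRNA localisation, had -0.69. ARP4, an actin-related subunit of the INO80, SWR1 and NuA4 complexes, had -0.58, FMP25, of respiratory complex III assembly, had -0.54 and YBR230W-A had -0.93. TSA1, a peroxidase and chaperone, had 2394, 1914 and 2507 CPM at t2 in psh1Δ pGAL-3Flag-CSE4 and 1213, 1359 and 1326 CPM in WT, with 0.89. AHC2, of the ADA acetyltransferase complex, had 0.63, the dubious frame YDR010C had 1.07 and the Ty frame YNL054W-B, with 11.3% unique windows, had 0.98.

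The heat shock, Msn2/4 stress and proteasome lists had medians above that of all genes, but none of their genes was called in the difference of changes. Of 24 heat shock genes none was called, 18 were higher and none lower at an unadjusted p under 0.05, and the median log2 difference was 1.05. Over all genes 7.36% were higher and 8.78% lower at that p. HSP82, the inducible Hsp90, had 2053, 1018 and 1832 CPM at t2 in psh1Δ pGAL-3Flag-CSE4, against 337, 425 and 191 CPM at t0. In WT it had 474, 670 and 328 CPM at t2, against 430, 490 and 154 CPM at t0. The log2 difference was 1.91 ± 0.61 (adjusted p = 0.15). BTN2, which sorts misfolded proteins, had 1.90 ± 0.54, HSP10 had 0.59 and SSB1, a ribosome-bound Hsp70, had -0.04. The batches disagreed in size, with list medians of 1.30, 0.29 and 1.15 in batches 1, 2 and 3. Leaving out batch 1 left 1 of the 24 higher at that p, and leaving out batch 2 left 23. At t2 alone, psh1Δ pGAL-3Flag-CSE4 against WT, 17 of the 24 were called higher and none lower, against 4.22% and 3.35% of all genes. The t2 comparison called far fewer genes without batch 1. The list's median log2 ratio to WT at t2 was 1.22, 0.25 and 1.15 in batches 1, 2 and 3. TTCNNGAA was in 16 of the 24 heat shock promoter windows, against 11.3% of all windows.

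Of 20 Msn2/4 stress genes none was called and 6 were higher at an unadjusted p under 0.05, against 7.36% of all genes. The number was 2 without batch 1 and 13 without batch 2, and the batch medians were 1.17, 0.03 and 1.34. YGP1, a secreted stress protein, had 4278, 2559 and 4309 CPM at t2 in psh1Δ pGAL-3Flag-CSE4 and 1507, 2039 and 1197 CPM in WT. DDR48 had 32.0, 20.0 and 13.0 CPM at t2 in psh1Δ pGAL-3Flag-CSE4 and 14.5, 14.0 and 10.5 CPM in WT. In both stress lists batch 2 was the smallest of the 3.

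Of 33 proteasome genes none was called, 19 were higher and none lower at an unadjusted p under 0.05, and the median was 0.37. The shares of all genes at that p were 7.36% higher and 8.78% lower. RPN4, the activator of these genes, had 461, 369 and 460 CPM at t2 in psh1Δ pGAL-3Flag-CSE4, against 194, 213 and 151 CPM at t0. WT had 182, 238 and 163 CPM at t2, against 164, 226 and 163 CPM at t0. The groups did not overlap at t2, and the log2 difference was 1.13 ± 0.26 (adjusted p = 0.063). PUP1, a catalytic subunit, had 0.70, and PRE8 had -0.15. Without batch 1 the number higher was 8. GGTGGCAAA was in 27 of the 33 proteasome windows, in 31 of 427 windows of genes higher at an unadjusted p under 0.05, in 0 of 532 of those lower, and in 1.17% of all windows. The 19 proteasome genes higher at that p are among the 427, so the 27 and the 31 share genes. Windows with the site outside the proteasome list were not counted.

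Of 9 histone genes (8 core histone genes and HHO1, linker histone H1) none was called in the difference and 4 were higher at an unadjusted p under 0.05 (against 7.36% of all genes), with a median of 0.55. At t2 alone 8 of the 9, the core histones, were called higher in psh1Δ pGAL-3Flag-CSE4 than in WT, against 4.22% of all genes. The t2 comparison called far fewer genes without batch 1. HHF1, a histone H4 gene, had 872, 625 and 478 CPM at t2 in psh1Δ pGAL-3Flag-CSE4 and 365, 361 and 324 CPM in WT. At t0 it had 485, 393 and 528 CPM in psh1Δ pGAL-3Flag-CSE4 and 387, 377 and 457 CPM in WT. HHT2, a histone H3 gene, had 1197, 976 and 798 CPM at t2 in psh1Δ pGAL-3Flag-CSE4 and 665, 643 and 595 CPM in WT. Both were clear of WT at t2 in every batch, whereas the list's batch medians of the difference were 0.74, 0.67 and 0.28. Without batch 1 or 2 none of the 9 reached an unadjusted p under 0.05.

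Glycolysis also had a median above that of all genes. Of 15 genes none was called, 12 were higher and none lower at an unadjusted p under 0.05, and the median was 0.75. The shares of all genes at that p were 7.36% higher and 8.78% lower. The list's batch medians were 1.24, 0.59 and 0.56. Before galactose its median log2 ratio to WT was -0.41, -0.05 and 0.21 in batches 1, 2 and 3. ENO1, an enolase, had 4653, 3264 and 3094 CPM at t2 in psh1Δ pGAL-3Flag-CSE4, against 1132, 1638 and 1393 CPM at t0. WT had 1146, 2315 and 843 CPM at t2, against 1641, 1826 and 1295 CPM at t0. TDH1, a glyceraldehyde-3-phosphate dehydrogenase, had 1.38 ± 0.55, while the phosphofructokinase genes PFK1 and PFK2 had -0.01 and 0.07. Without batch 1, 3 of the 15 were higher. Of 9 galactose genes none was called. GAL10 reached 16120, 13360 and 13370 CPM at t2 in psh1Δ pGAL-3Flag-CSE4, against 7547, 8284 and 7542 CPM in WT (log2 difference of changes 0.85 ± 0.20, adjusted p = 0.064), whereas GAL7 had 4913, 4234 and 4822 CPM in psh1Δ pGAL-3Flag-CSE4 and 5355, 5635 and 5114 CPM in WT. Of 32 respiration genes 9 were higher at that p, but 1 without batch 1 or batch 2 and 14 without batch 3, with a median of 0.24, and SDH2, a succinate dehydrogenase subunit, had 0.84.

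**Figure D3:**
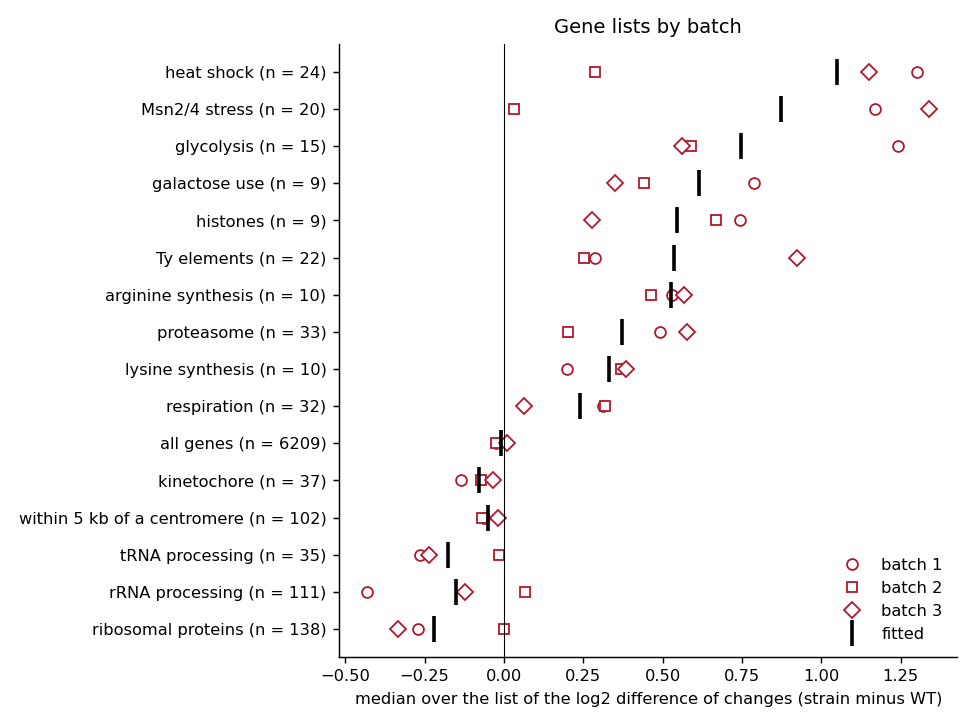
Median over each gene list of the log2 difference of changes, psh1Δ pGAL-3Flag-CSE4 minus WT (x axis), in each batch (circle, square and diamond) and in the fit of all 12 libraries (bar), with the number of genes measured. The heat shock and Msn2/4 lists have their smallest value in batch 2, while the arginine list varies between 0.46 and 0.57, and all genes lie near 0.

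Genes of the kinetochore and of CENP-A turnover stayed close to the rest. Of 37 kinetochore genes none was called, 3 were higher (8.11%) and 5 lower (13.5%) at an unadjusted p under 0.05 (median -0.08). Over all genes these shares were 7.36% and 8.78%. CTF19, of the inner kinetochore, had 29.6, 31.4 and 33.0 CPM at t2 in psh1Δ pGAL-3Flag-CSE4 and 16.6, 20.6 and 13.5 CPM in WT, with a log2 difference of 1.00 ± 0.23 (adjusted p = 0.064). DAD3, of the outer DASH complex, had 13.6, 11.4 and 11.7 CPM in psh1Δ pGAL-3Flag-CSE4 and 20.1, 18.1 and 21.3 CPM in WT, with -0.80 ± 0.19. In the list of 19 CENP-A genes CSE4 was the 1 called. SCM3, the Cse4 chaperone, had 0.44 and MSI1, of the CAF-1 histone chaperone, had -0.42. The 102 genes within 5 kb of a centromere had a median of -0.05, with none called, 6 higher and 12 lower. RRP6, of the nuclear exosome, had the lowest fitted value among members with at least 10 mean counts, -0.74, with 64.8, 84.0 and 72.7 CPM at t2 in psh1Δ pGAL-3Flag-CSE4 and 120, 115 and 118 CPM in WT.

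The remaining lists were as follows, counted at an unadjusted p under 0.05. At that p 7.36% of all genes were higher and 8.78% lower. Spindle checkpoint genes (10) had no member at an unadjusted p under 0.05 and a median of -0.01. Mediator (25 genes) had 3 lower and a median of -0.12, SRB4 having -0.62 and CSE2 -0.54. INO80 (14) had 2 lower, and H2A.Z and SWR1 (11) had 1 higher. DNA damage response genes (11) had 4 higher (1 without batch 1 or batch 2) and a median of 0.21, RNR3, a damage-induced ribonucleotide reductase, having 0.79. NAD synthesis (11) had 1 higher, 4 lower and a median of -0.23, with BNA2 at 1.17 ± 0.24 and BNA4 and BNA7 at -0.95 and -0.66 (adjusted p = 0.0541, 0.0822 and 0.0716). BNA7 was also among the genes called lower at t0. Sulfur and methionine genes (20 measured) had 3 lower, purine genes (19) had 2 higher and 2 lower, and pheromone response genes (10) had 1 higher, FUS1 with 1.35. Ribosomal protein genes (138) had a median of -0.22 with 2 lower, rRNA processing genes (111) a median of -0.15 with 11 lower (3 without batch 1), tRNA processing genes (35) a median of -0.18 with 7 lower (2 without batch 1 or batch 3), splicing genes (36) a median of -0.05 with 3 higher and 6 lower, and protein folding genes (81) a median of -0.02 with 14 higher and 6 lower.

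Cell type and cycle markers were compared because the cultures were asynchronous, and in bulk RNA a change in the share of cells of a type and a change in RNA per cell cannot be told apart. G1 genes (7) had a median of 0.08 with none at an unadjusted p under 0.05, where 7.36% of all genes were higher and 8.78% lower. G2/M genes (8) had -0.15 with 1 lower, CLB1, at -0.63, and M/G1 genes (12) had -0.29 with 1 lower, EGT2, at -0.52. All 12 M/G1 genes had fitted values below 0, -0.52 to -0.03. The a-cell list (6) had a median of 0.04 with 1 lower, the 3 alpha-cell markers measured had 0.54 with none, and 8 diploid sporulation genes had 0.12 with 2 higher. Summed over its list, the M/G1 level was 4438 to 4875 CPM at t2 and 5244 to 6516 CPM at t0 in psh1Δ pGAL-3Flag-CSE4, and 4777 to 5254 CPM at t2 and 4903 to 6075 CPM at t0 in WT. The part of these shifts in the other differences was not tested.

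The position of the genes relative to their neighbours was examined after the values were seen, so it is a description with no test. Genes were sorted by whether the nearest gene upstream lies on the same strand, so that its end faces the promoter (tandem), or on the opposite strand, so that the promoter region is shared by 2 starts (divergent). Of all 5693 placed genes 52.0% were divergent. None of the 11 genes called lower was, and of the genes lower at an unadjusted p under 0.05, 139 of 532 (26.1%) were divergent and 393 tandem. Of the genes higher at an unadjusted p under 0.05, 273 of 427 (63.9%) were divergent, and of the called genes higher 5 of 9. In WT alone the shares were 52.1% of the genes higher and 50.2% of those lower at t2 against t0, both near the share of all genes. Within psh1Δ pGAL-3Flag-CSE4 they were 64.8% and 32.3%. The shares among lower genes were 26.0, 23.8 and 31.0% in 3 equal groups of low, middle and high WT t0 level, so the pattern was present at each level. The strand of the downstream neighbour was less uneven: 57.1% of the lower genes and 46.5% of the higher ones had a convergent neighbour, against 52.0% of all.

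Among tandem genes the share that was lower followed the level of the upstream neighbour. With 2642 tandem genes of at least 10 mean counts in 5 equal bins by the WT t0 level of the neighbour, the share lower at an unadjusted p under 0.05 was 7.18, 11.6, 13.4, 17.4 and 24.6% from the lowest to the highest bin, and the share higher was 6.99, 7.01, 5.68, 3.79 and 5.48%. The median log2 difference was -0.01, -0.05, -0.10, -0.12 and -0.16. In the highest bin the batch medians were -0.19, -0.15 and -0.16, and in the lowest they were -0.02, -0.03 and -0.01. In WT t2 against t0, 13.2, 12.9, 13.6, 12.9 and 12.7% of the same genes were lower. The genes' own level varied little across the bins, with medians of 61.3 to 67.5 CPM. Among divergent genes the share lower was 5.89, 5.03, 4.68, 3.81 and 4.33%, and the share higher was 7.63, 6.76, 8.84, 10.2 and 13.5%.

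Of the 11 genes called lower, all tandem, 5 had an upstream neighbour at or above 144 CPM in WT at t0, against 22.7% of all tandem genes. MSB1 lies 423 bases after TUF1, which stood at 1395 CPM in WT at t0, and HCS1 lies 223 bases after ATP7, at 752 CPM. GTR2 follows TIF4631 at 415 CPM, YDR090C follows RLI1 at 280 CPM and YGL101W follows RPL28 at 170 CPM. POA1 lies 393 bases after FUR4, the uracil permease gene, which was induced by galactose in both genotypes. FUR4 had 790, 742 and 680 CPM at t2 in psh1Δ pGAL-3Flag-CSE4 and 412, 340 and 362 CPM at t2 in WT, with a log2 difference of changes of 1.10 ± 0.22 (adjusted p = 0.0541), opposite in sign to POA1. MRPL17 lies 301 bases after NRD1, a transcription termination factor gene, which had 318, 283 and 313 CPM at t2 in psh1Δ pGAL-3Flag-CSE4 and 135, 152 and 169 CPM in WT (log2 difference 0.89 ± 0.25, adjusted p = 0.11). PUS6 and HTD2 follow genes of lower level, LSO2 at 30.7 CPM and SSF1 at 66.5 CPM. DFR1 follows SNR17A, a small nucleolar RNA gene whose RNA lacks a poly(A) tail, so its 0.792 CPM does not give its level. The libraries carried no strand, so reads that run from one gene into the next or lie antisense are counted with the gene they fall on.

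**Figure D4:**
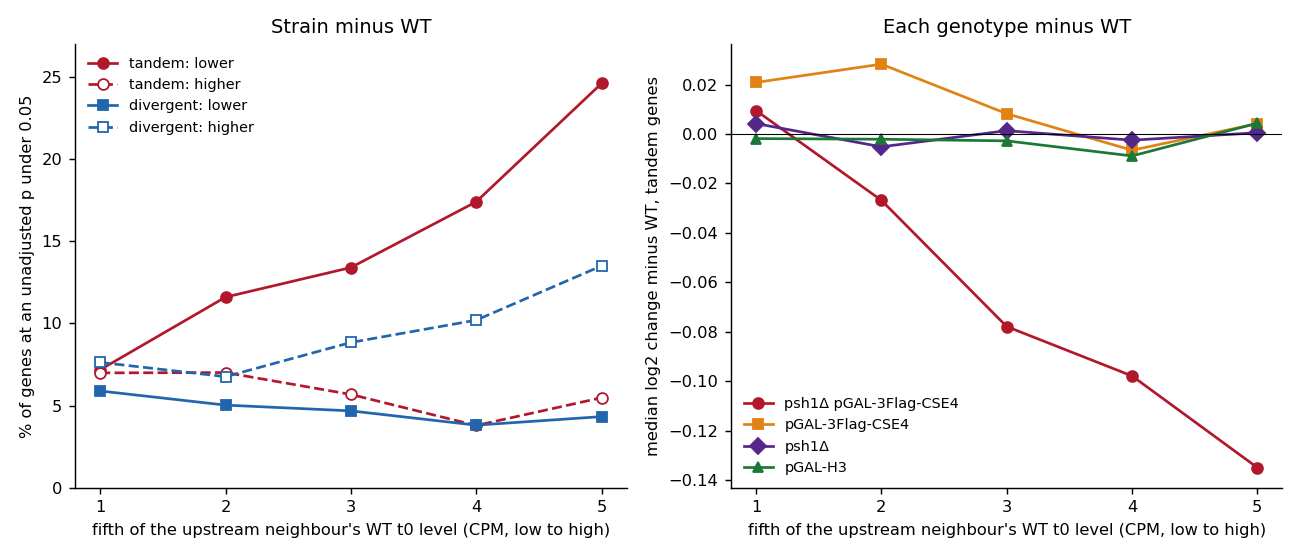
Left, percent of genes lower (filled) or higher (open) at an unadjusted p under 0.05 in psh1Δ pGAL-3Flag-CSE4 minus WT (y axis, from 0), for tandem and divergent genes in 5 bins of the upstream neighbour's WT t0 level (x axis). Right, median log2 change minus that of WT over tandem genes in the same bins, for 4 genotypes. The share of tandem genes lower is 7.18% in the lowest bin and 24.6% in the highest, and in the highest bin the medians are -0.14 in psh1Δ pGAL-3Flag-CSE4 and 0.00 in the other 3 genotypes.

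The other strains of the series carry parts of the genotype. Values given minus WT share the WT libraries, and the tests below all share the psh1Δ pGAL-3Flag-CSE4 libraries in which the 21 genes were called. Against pGAL-3Flag-CSE4, which has Psh1 and was in batches 2 and 3 only, no gene was called in either direction (0% and 0%), although 341 genes were higher and 388 lower at an unadjusted p under 0.05. The log2 change of CSE4 was 8.55 in psh1Δ pGAL-3Flag-CSE4 and 8.18 in pGAL-3Flag-CSE4, a difference of 0.37 ± 0.34 in edgeR's quasi-likelihood test (adjusted p = 0.70). PHO3 changed by 2.02 in psh1Δ pGAL-3Flag-CSE4, 1.75 in pGAL-3Flag-CSE4, 1.75 in pGAL-H3, 0.84 in psh1Δ and 0.85 in WT.

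Against psh1Δ alone, 8 genes were called higher (0.129%) and 20 lower (0.322%). With the batch as a block the counts were 35 and 51, and without batch 1, 2 or 3 they were 1, 1 and 4 higher and none lower. Against pGAL-H3, the strain with histone H3 under the galactose promoter, 110 were called higher (1.77%) and 143 lower (2.3%). Without batch 1 these counts were 1 and 0, and without batch 3 they were 2 and 2. ARG1 changed by 0.65 in psh1Δ pGAL-3Flag-CSE4, -0.49 in pGAL-3Flag-CSE4, -0.89 in psh1Δ, -0.44 in pGAL-H3 and -0.96 in WT. POA1 changed by -1.41 in psh1Δ pGAL-3Flag-CSE4, -0.49 in pGAL-3Flag-CSE4, -0.14 in psh1Δ, -0.29 in pGAL-H3 and -0.16 in WT. DFR1, with -0.81 in psh1Δ pGAL-3Flag-CSE4, had -0.03, 0.49, 0.55 and 0.43 in pGAL-3Flag-CSE4, psh1Δ, pGAL-H3 and WT. The share of divergent genes among those lower at an unadjusted p under 0.05 was 22.5% against pGAL-3Flag-CSE4, 24.0% against psh1Δ and 33.7% against pGAL-H3. Set against WT, the median of tandem genes in the highest bin of upstream level was -0.14 in psh1Δ pGAL-3Flag-CSE4, 0.00 in pGAL-3Flag-CSE4, 0.00 in psh1Δ and 0.00 in pGAL-H3. The median of the heat shock list minus that in WT was -0.01 in pGAL-3Flag-CSE4, -0.03 in psh1Δ and -0.16 in pGAL-H3. In the same order the arginine list had 0.30, -0.04 and 0.22, and the M/G1 list had -0.42, -0.05 and -0.15. The fitted medians of these lists in psh1Δ pGAL-3Flag-CSE4 minus WT were 1.05 for heat shock, 0.53 for arginine and -0.29 for M/G1.

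**Figure D5:**
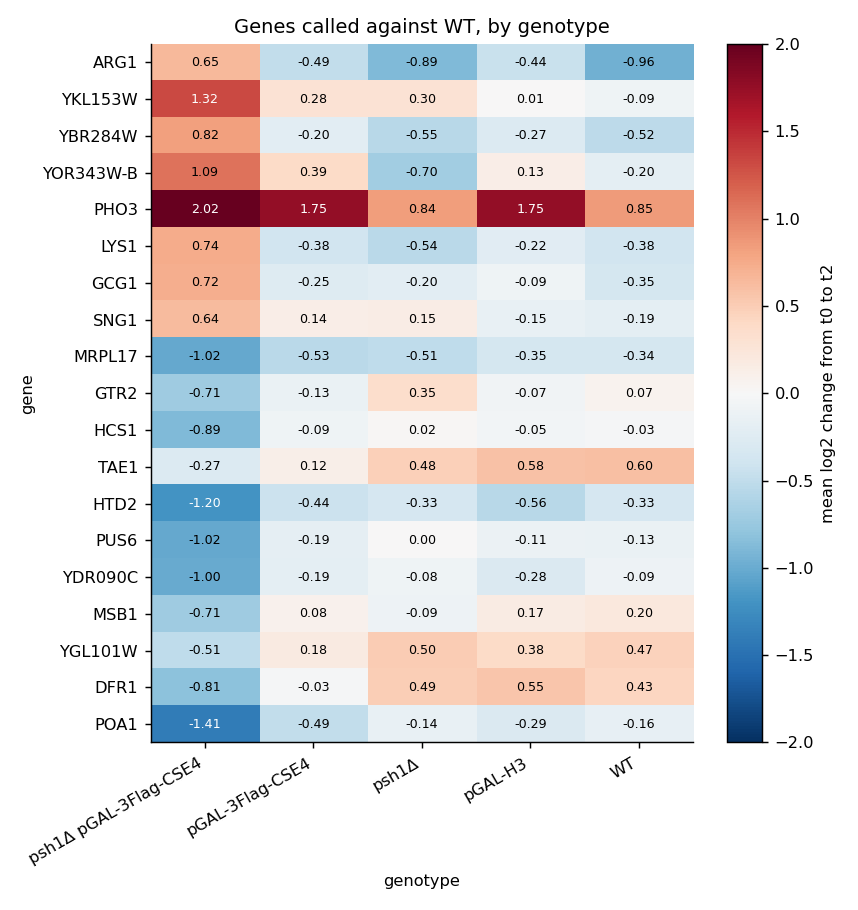
Mean log2 change at t2 against t0 (colour and number) of 19 genes called against WT (rows) in 5 genotypes (columns; n = 3, and n = 2 for pGAL-3Flag-CSE4). For PHO3 the columns pGAL-3Flag-CSE4 and pGAL-H3 both show 1.75, close to the 2.02 of psh1Δ pGAL-3Flag-CSE4, while POA1 has -1.41 there and -0.49 to -0.14 elsewhere.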

How the data were processed

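Poly(A) RNA of the 34 libraries was sequenced as single reads of 50 bases from a kit that does not mark strand. Alignment to sacCer3 by the authors used TopHat 2.1.0, and reads were counted per gene with HTSeq 0.6.1 and compared groups with edgeR 3.12.0. The deposited raw counts per gene were used here. The deposited tables repeat libraries in 24 columns with identical counts, used once. Their 58 CPM columns and the columns of the authors' own comparisons (fold changes, p-values) were not used.

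The 12 libraries were fitted from the counts of all 6209 genes with edgeR 4.0.16 (TMM scaling, quasi-likelihood test, R 4.3.3), with 1 term per genotype and time and no batch term, and p-values were Benjamini-Hochberg adjusted over all genes. Printed CPM values are TMM-normalized. Single-batch values used a pseudocount of 0.5 CPM, and floors cover counting error only. Named genes were those called with at least 10 mean counts, then the next 10 whose sign agreed over batches, and leading members of 36 gene lists. The comparison, members and lists were chosen with earlier results of these data known. Some genes that the rule selects are not reported here.

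Batch numbers pair the libraries by label. Over 18 pairs of libraries of the same batch and different groups, the correlation of deviations from the group means was -0.39 to 0.73 (median 0.09), with 8 over 0.1. These pairs join different strains as well as t0 and t2 of a culture, so they do not measure the pairing within cultures alone. Fits were tested on simulated data. Alternatives were a batch or culture block, DESeq2 1.42.0, other scalings, a filter on low counts (10 counts in 3 libraries), the likelihood ratio test, all 34 libraries, and each batch left out. Leaving chromosome I out and recounting the lists were chosen after seeing the data.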

Additional observations from a re-analysis of the deposited data

Results flagged for a closer look

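The change at t2 against t0 differed between genotypes for 21 genes in psh1Δ pGAL-3Flag-CSE4 minus WT, for 28 in psh1Δ pGAL-3Flag-CSE4 minus psh1Δ and for 253 in psh1Δ pGAL-3Flag-CSE4 minus pGAL-H3. Each count comes from the interaction of genotype and time in edgeR's quasi-likelihood test. Of 6209 genes, 0.161% were called higher and 0.177% lower against WT. The shares were 0.129% and 0.322% against psh1Δ, and 1.77% and 2.3% against pGAL-H3. Against pGAL-3Flag-CSE4 no gene was called in either direction. Leaving out a batch lowered each of the counts above 0, as given below.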

How the results depend on the processing

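All 21 genes called in psh1Δ pGAL-3Flag-CSE4 minus WT kept their direction in every setting, but every setting used libraries from which they were called. The numbers called higher and lower were 10 and 11. With the batch as a replicate block they were 18 and 17, with the culture as a replicate block 4 and 2, with DESeq2's Wald test 99 and 61, with the likelihood ratio test 80 and 75, and with a fit of all 34 libraries 113 and 75. Leaving out 1 batch, they ranged over 1 to 3 higher and 0 to 0 lower. The same range was 62 to 255 higher and 73 to 325 lower for psh1Δ pGAL-3Flag-CSE4 at t2 against t0, 16 to 96 and 1 to 224 for WT, 19 to 336 and 36 to 218 between the genotypes at t2, and 1 to 1 and 6 to 13 at t0. With the batch block, 4 genes were called higher at t0. Against psh1Δ the batch block called 35 and 51, and leaving out a batch 1 to 4 and 0 to 0. Against pGAL-H3 leaving out a batch called 1 to 62 and 0 to 13. PSH1, near 0 counts in the deletion, had a log2 difference of -0.99 and, leaving out 1 batch each, between -3.59 and 0.32, the last without batch 2. The batch block changed the call of HTD2 alone among the 21. At 5352631 to 6321150 counts a library, genes under about 0.5 CPM could not be told from 0.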
